A study of Mus musculus with 59 samples.

Results

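The genes described here encode CTCF and the cohesin machinery. They are *Ctcf*, *Rad21*, *Smc1a*, *Smc3*, *Stag1*, *Stag2*, *Nipbl*, *Pds5a* and *Pds5b*, which were listed by name, and *Wapl*, which the deposited tables carry under its older symbol *Wapal*. All 10 genes were found among the 24728 genes with a value in every mRNA-seq library, and all 10 were among the 11681 genes that were tested, for which the 5 libraries had to average 1 TPM or more. The list names them by function and sets no threshold on their values, and none of them was lost to the filter. TPM (transcript abundance relative to all transcripts) is a read count divided by gene length and scaled to the same total in each library, so that levels of different genes can be compared.

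The libraries were made from poly(A) RNA of immature B cells that had been sorted ex vivo from mouse bone marrow and carried IgMb, the IgM allotype of the C57BL/6 *Igh* allele. According to the study, the gate included IgM+ and IgD- among its criteria. The Δ890 group (n = 2) is labelled Igh(_delta_890/+), a heterozygous genotype with an *Igh* allele that lacks 890 kb of the distal VH gene region. The P4V group (n = 3) is labelled Igh(P4V/P4V), whereas the study describes mice with 1 P4V allele where it gives the cross and writes P4V/P4V in another place. Whether the values bear on this difference was not examined here. In the study's description of the cross, the other *Igh* allele is a wild-type 129/Sv allele in both groups. The P4V allele carries the same deletion, with the PAIR4 element and the V8.7E enhancer inserted at the deletion point, so that cells of both groups lack the 890-kb region on the allele that expresses IgMb. No sample of this assay without the deletion was analysed here. The age of the mice is not given in the sources used here, nor whether a library came from 1 mouse or from several, so p-values measure only the spread between these libraries.

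Cohesin is a ring of SMC1A, SMC3 and the kleisin RAD21, to which 1 of the STAG proteins binds. It is loaded on chromatin by NIPBL with MAU2, extrudes DNA into growing loops and is held up at bound CTCF, while PDS5 proteins and WAPL release it from DNA. In pro-B cells, extrusion over the *Igh* locus brings distant VH genes to the recombination centre, and PAX5 represses *Wapl* there to prolong it. Immature B cells have completed this step.

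The cell type was checked first. *Cd79a*, which encodes a signalling subunit of the B cell receptor, was at 9495 to 10845 TPM, and *Ms4a1*, which encodes the B cell surface protein CD20, was at 1445 to 1778 TPM. The summed level of 8 T and NK cell markers was 8.12 to 14.2 TPM. The sum of the 7 myeloid markers found was 2387 and 3013 TPM in the Δ890 libraries and 1860, 2946 and 5868 TPM in the P4V libraries. P4V replicate 3 held the most myeloid RNA, led by *S100a9* at 3152 TPM. The sum of 8 pro-B and pre-B cell markers was 180 TPM in P4V replicate 2 and between 67.6 and 85.4 TPM in the other 4 libraries. The sum of 5 plasma cell markers was 348 to 353 TPM in the Δ890 libraries and 324 to 518 TPM in the P4V libraries, and that of 5 mature B cell markers 287 to 382 TPM over all 5. The 4 erythroid markers found summed to 421 to 472 TPM, mostly from *Alas2*, while the globin gene *Hbb-b1* was listed at 0, and *Klf1* had an unadjusted limma p of 0.0182 (log2 change 0.39). Distal VH genes served as a check of the alleles: *Ighv1-82* was at 81.7 and 89.7 TPM in the Δ890 libraries and at 318 to 453 TPM in the P4V libraries (log2 change 2.07 ± 0.15 (SE), limma adjusted p = 0.0482). The log2 change of *Ighv1-82* stayed between 1.91 and 2.17 over the 11 alternatives that held the gene, but its adjusted limma p ran from 0.0104 to 0.211 and was below 0.05 in 4 of them. Of the 6 distal VH genes listed, *Ighv1-80*, *Ighv1-81*, *Ighv1-84* and *Ighv1-85* also had an unadjusted limma p below 0.05.

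Reads were 50 bases long and only uniquely mapping reads had been counted, so shared sequence between related genes bears on these levels. *Stag1* and *Stag2* are paralogs, as are *Pds5a* and *Pds5b*. The closest 50-base windows of their coding sequences are shown because they are the places where a read is most likely to be placed in the wrong gene. All sequences are 5′ to 3′ on the coding strand of the mm9 assembly with the GENCODE M1 models, and capitals mark the bases at which the paralogs differ.
Stag1: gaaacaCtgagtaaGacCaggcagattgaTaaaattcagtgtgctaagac
Stag2: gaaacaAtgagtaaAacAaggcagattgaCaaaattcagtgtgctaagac
Pds5a: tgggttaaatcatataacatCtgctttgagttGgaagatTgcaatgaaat
Pds5b: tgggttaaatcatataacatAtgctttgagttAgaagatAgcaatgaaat
The *Stag1* window lies in coding exon sequence at chr9:100843087-100843136 (exon 26, plus strand) and that of *Stag2* at chrX:39611233-39611282 (exon 26, plus strand). The *Pds5a* window lies at chr5:66055134-66055183 (exon 5, minus strand) and that of *Pds5b* at chr5:151525062-151525111 (exon 5, plus strand). The fewest mismatches between *Stag1* and *Stag2* in any ungapped 50-base window were 4, and between *Pds5a* and *Pds5b* 3, with a median of 15 over all windows for either pair. A read without errors from 1 paralog therefore had no identical match in the coding sequence of the other.

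The same question was asked of the whole genome. For 7 of the 10 genes (*Ctcf*, *Smc1a*, *Stag1*, *Nipbl*, *Pds5a*, *Pds5b* and *Wapl*), no 50-base window of the transcript with the longest coding sequence occurred a second time in mm9. Of *Rad21*, 0.450% of windows did, all in 1 stretch at chr1:133450679-133450743. Of *Smc3*, 4.04% of 4802 windows occurred elsewhere, at 3 places on chromosomes 7, 11 and 17. Of *Stag2*, 2 of 6122 windows did. By contrast, 85.6% of the windows of *Gapdh* and 61.9% of those of *Ppia* were found elsewhere, and these genes of every cell were listed at only 2.76 to 5.22 TPM and 3.71 to 5.19 TPM. By exact matches, few windows of the CTCF and cohesin genes thus occurred elsewhere, with the largest share for *Smc3*. Copies that differ by 1 base or more were not searched for, so the loss of reads through such copies is unknown.

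*Ctcf* encodes the zinc finger protein that anchors loops and lies at chr8:108160468-108206822 (plus strand). It was at 143 and 154 TPM in the Δ890 libraries and at 143, 144 and 149 TPM in the P4V libraries. It had the highest mean of the 10 genes, at 147 ± 4.95 TPM (SD, n = 5), with the lowest coefficient of variation (3.37%). The libraries of the 2 groups overlapped, and *Ctcf* differed by -0.03 ± 0.06 (SE) on the log2(TPM + 1) scale, with limma's adjusted p = 0.952. Its germline paralog *Ctcfl* was listed at 0.155 to 0.519 TPM and was not tested.

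*Rad21* encodes the kleisin that closes the ring and lies at chr15:51794151-51823306 (minus strand). It was at 137 and 142 TPM in the Δ890 libraries and at 133, 147 and 134 TPM in the P4V libraries. The highest and the lowest value thus both came from P4V cells, and the log2 change was -0.01 ± 0.07 (SE). *Smc1a*, 1 of the SMC arms of the ring, lies at chrX:148450971-148497237 (plus strand). It was at 66.6 and 79.6 TPM in the Δ890 libraries and at 66.7, 85.0 and 82.1 TPM in the P4V libraries. It varied most of the 10 genes, with a coefficient of variation of 11.5%, and each group held a library near 67 TPM. Its log2 change of 0.09 ± 0.13 (SE) had a 95% interval from -0.21 to 0.39. *Smc3*, the other SMC arm, lies at chr19:53674886-53720323 (plus strand). It was at 50.1 and 57.5 TPM in the Δ890 libraries and at 51.1, 58.6 and 50.8 TPM in the P4V libraries. The groups spanned almost the same range, and the log2 change was -0.01 ± 0.10 (SE).

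*Stag2* and *Stag1* encode the alternative STAG subunits of cohesin. *Stag2* (chrX:39502494-39630362, plus strand) was at 49.7 and 50.8 TPM in the Δ890 libraries and at 41.8, 53.4 and 42.8 TPM in the P4V libraries. The Δ890 values lay inside the range of the P4V values, and the log2 change was -0.13 ± 0.11 (SE). *Stag1* (chr9:100498217-100858964, plus strand) was at 23.5 and 24.8 TPM in the Δ890 libraries and at 20.1, 23.5 and 24.7 TPM in the P4V libraries. Only P4V replicate 1 lay below both Δ890 libraries, and the log2 change was -0.08 ± 0.10 (SE). The germline members of the ring were near 0: *Stag3* was listed at 0.700 to 1.19 TPM, *Smc1b* at no more than 0.0655 TPM, *Rec8* at no more than 0.195 TPM and *Rad21l* at 0 in all 5 libraries.

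*Smc1a* and *Stag2* are X-linked, and the libraries differed in *Xist*, the RNA of the inactive X chromosome, which was at 34.2 and 25.6 TPM in the Δ890 libraries and at 18.6, 18.3 and 2.999 TPM in the P4V libraries. *Smc1a* was high and *Stag2* low in P4V replicate 3, the library with the least *Xist*. The Y-linked gene *Eif2s3y* was at 11.2 and 19.6 TPM in the Δ890 libraries and at 17.6, 25.8 and 38.5 TPM in the P4V libraries, and *Ddx3y*, *Kdm5d* and *Uty* were also above 0 in every library. All 5 libraries thus held both *Xist* and Y-linked RNA. The part of the sex of the mice in the levels of *Smc1a* and *Stag2* was not tested.

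*Nipbl* encodes the cohesin loader and lies at chr15:8241225-8394463 (minus strand). It was at 50.9 and 53.5 TPM in the Δ890 libraries and at 47.8, 52.9 and 40.9 TPM in the P4V libraries. P4V replicate 3 had the lowest value and P4V replicate 2 lay between the Δ890 libraries. *Nipbl* had the largest difference of the 10 genes, with a log2 change of -0.15 ± 0.11 (SE), a 95% interval from -0.41 to 0.12 and limma's adjusted p = 0.893. Its partner *Mau2*, no member of the set, was higher than *Nipbl* in every library, at 72.9 to 88.0 TPM.

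*Pds5a* and *Pds5b* encode the regulators that bind RAD21 and act in both release and protection of cohesin. *Pds5a* (chr5:66006499-66089095, minus strand) was at 57.4 and 58.8 TPM in the Δ890 libraries and at 54.4, 58.4 and 49.3 TPM in the P4V libraries. *Pds5b* (chr5:151476314-151613265, plus strand) was at 28.1 and 31.0 TPM in the Δ890 libraries and at 26.6, 30.3 and 25.4 TPM in the P4V libraries. Both were lowest in P4V replicate 3, both had 1 P4V value between the Δ890 values, and their log2 changes were -0.11 ± 0.09 (SE) and -0.11 ± 0.10 (SE). In bulk RNA, fewer cells that express a gene and less RNA of it per cell cannot be told apart.

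*Wapl* encodes the release factor and lies at chr14:35487114-35561169 (plus strand). It was at 25.2 and 26.99 TPM in the Δ890 libraries and at 26.1, 28.3 and 26.5 TPM in the P4V libraries. The groups overlapped and the log2 change was 0.04 ± 0.08 (SE). *Pax5*, which encodes the repressor of *Wapl* in pro-B cells, was at 859 and 846 TPM in the Δ890 libraries and at 821, 758 and 845 TPM in the P4V libraries. Its P4V values all lay below its Δ890 values, and 23.2% of all genes tested did not overlap in either direction. The log2 change of *Pax5* was -0.08 ± 0.07 (SE), with limma's adjusted p = 0.903. *Pax5* was lowest in P4V replicate 2, where *Wapl* was highest. In Δ890 replicate 2, however, *Wapl* was next highest at 26.99 TPM while *Pax5* was at 846 TPM, above all P4V libraries. With 5 libraries, no correlation was computed.

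**Figure D1:**
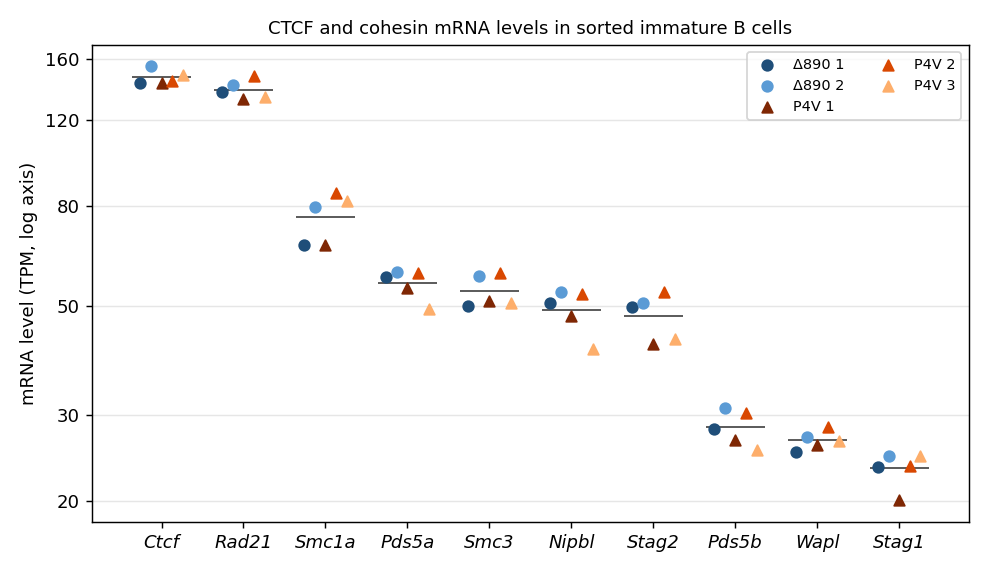
mRNA level in TPM (log axis) of the 10 genes, ordered by mean, in the 2 Δ890 libraries (circles) and the 3 P4V libraries (triangles), with a line at the mean of all 5. *Ctcf* and *Rad21* stand above the other 8 genes in every library, and circles and triangles overlap for each gene.

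None of the 10 genes passed the threshold of 0.05 on the adjusted p of limma (0.893 to 0.990 over the 10), and none had an unadjusted limma p below 0.05 (0.224 to 0.936). Over all 11681 genes tested, 0.00856% were called by the adjusted p, which is the single gene *Ighv1-82*, and 4.47% had an unadjusted p below 0.05, so a count of 0 among 10 genes is near this background. For none of the 10 genes did the libraries of the groups separate without overlap, compared with 23.2% of all genes tested. For all 10 the range within the P4V group was wider than the difference between the group means.

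The precision of this comparison is given by the intervals. The 95% intervals of all 10 genes lay within 1.5-fold in either direction. The lowest bound was 0.750-fold (*Nipbl*) and the highest 1.31-fold (*Smc1a*), and the widest interval was that of *Smc1a*, from 0.862-fold to 1.31-fold. Intervals this narrow were found for 86.0% of all genes tested. Changes of 1.5-fold or more therefore lay outside the intervals of all 10 genes, while smaller changes inside a gene's interval could not be told from 0. The narrowest interval was that of *Ctcf*, from 0.880-fold to 1.09-fold. The sign was negative for 8 of the 10 genes in the TPM values as deposited, compared with 60.7% of all genes tested, and for 5 of the 10 after median-of-ratios scaling, in which each library is divided by the median of its genes' ratios to their geometric means. The median log2 change was -0.06 for the 10 genes and -0.03 for all genes tested. With 1 library left out, the median of the 10 genes ran from -0.113 to -0.00979, and 5 to 10 of them were negative. The median size regardless of sign was 0.0862 for the 10 genes and 0.0815 for all genes tested. It was 0.0631 for the 4739 genes of the same range of mean levels.

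**Figure D2:**
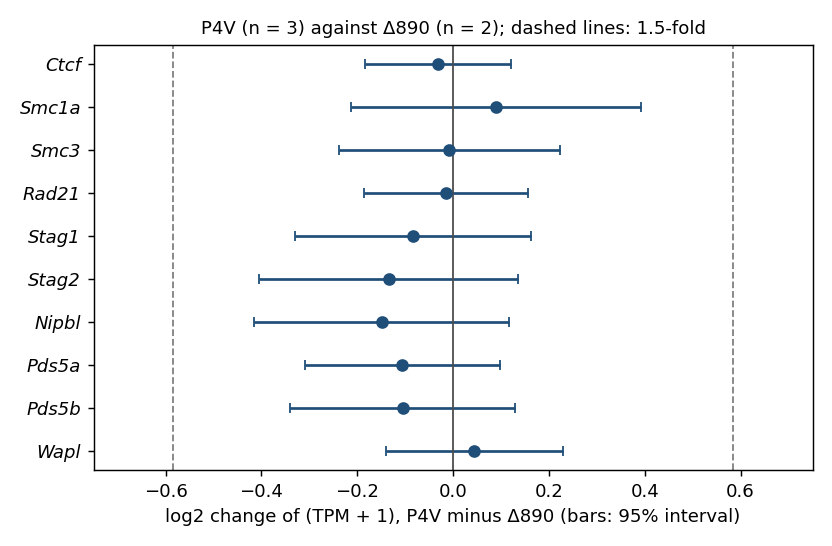
Log2 change of (TPM + 1) between P4V (n = 3) and Δ890 (n = 2) cells for the 10 genes in the order of their roles, with 95% intervals from limma and dashed lines at 1.5-fold. Every interval includes 0 and stays inside the dashed lines.

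The order of the levels was described over the 5 libraries. The means were 147 TPM for *Ctcf*, 138 for *Rad21*, 76.0 for *Smc1a*, 55.7 for *Pds5a*, 53.6 for *Smc3*, 49.2 for *Nipbl*, 47.7 for *Stag2*, 28.3 for *Pds5b*, 26.6 for *Wapl* and 23.3 for *Stag1*. The 10 genes lay between the 48.5th and the 89.1st percentile of the tested genes by mean level. They formed steps rather than an even gradient, since the ranges of *Rad21* and *Smc1a*, of *Smc1a* and *Pds5a*, of *Stag2* and *Pds5b* and of *Wapl* and *Stag1* did not overlap. *Ctcf* and *Rad21* overlapped in range, and *Ctcf* was the higher in 4 of 5 libraries. *Pds5a*, *Smc3*, *Nipbl* and *Stag2* overlapped in range, and neighbours among them stood in the order of the means in 3, 4 and 3 of 5 libraries. *Pds5a* was nevertheless above *Nipbl* and *Stag2*, and *Smc3* above *Stag2*, in all 5 libraries. *Pds5b* was above *Wapl* in 4 of 5 libraries.

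The ring subunits were not at equal mRNA levels. The ratio of *Rad21* to *Smc3* was 2.59 ± 0.10 (SD, n = 5) and lay between 2.46 and 2.73. The ratio of *Smc3* to *Smc1a* was 0.710 ± 0.0591 (SD, n = 5), below 1 in every library. *Stag1* and *Stag2* together reached 0.513 ± 0.0283 (SD, n = 5) of the *Rad21* level, so that mRNA of the kleisin exceeded that of its STAG partners in each library. These are ratios of mRNA, and protein was not measured here.

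Within the paralog pairs, 1 member prevailed in each. *Stag2* was 2.05 ± 0.19 (SD, n = 5) times the level of *Stag1*, from 1.74 in P4V replicate 3 to 2.27 in P4V replicate 2. *Pds5a* was 1.97 ± 0.0690 (SD, n = 5) times the level of *Pds5b*, with a narrow range from 1.90 to 2.05. The *Pds5a* to *Pds5b* ratio was therefore steadier than that of *Stag2* to *Stag1*, with coefficients of variation of 3.50% and 9.50%.

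Loader and release factor were compared by the ratio of *Nipbl* to *Wapl*. It was 2.02 and 1.98 in the Δ890 libraries and 1.83, 1.87 and 1.54 in the P4V libraries. The 3 P4V values all lay below the Δ890 values, by -0.20 on the log2 scale, with an exact permutation p of 0.2 (two-sided, 10 splits, of which the smallest possible p is 0.1). The ratio of *Wapl* to *Rad21* was 0.184 and 0.191 in the Δ890 libraries and 0.197, 0.192 and 0.199 in the P4V libraries. These groups did not overlap either, with P4V higher by 0.06 on the log2 scale (exact permutation p = 0.2), and this was the steadiest of the 10 ratios, with a coefficient of variation of 2.90%.

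The ratios of *Stag1* and *Stag2* to *Rad21* (log2 difference -0.10) and of *Pds5a* and *Pds5b* to *Rad21* (-0.09) were also lower in all P4V libraries than in both Δ890 libraries, each with an exact permutation p of 0.2. *Pds5a* and *Pds5b* together were at 0.625 and 0.635 of *Rad21* in the Δ890 libraries and at 0.611, 0.601 and 0.559 in the P4V libraries. Thus 4 of the 10 ratios did not overlap between the groups, compared with 21.4% of the ratios of any 2 of the 11614 tested genes that were above 0 in all libraries. The 10 ratios share genes (*Rad21* enters 5 of them), and the design cannot reach a p below 0.1, so no ratio was shown to differ. The other 6 ratios overlapped between the groups, among them *Ctcf* to *Rad21* at 1.06 ± 0.0517 (SD, n = 5) and *Nipbl* to *Mau2* at 0.608 ± 0.0524 (SD, n = 5).

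**Figure D3:**
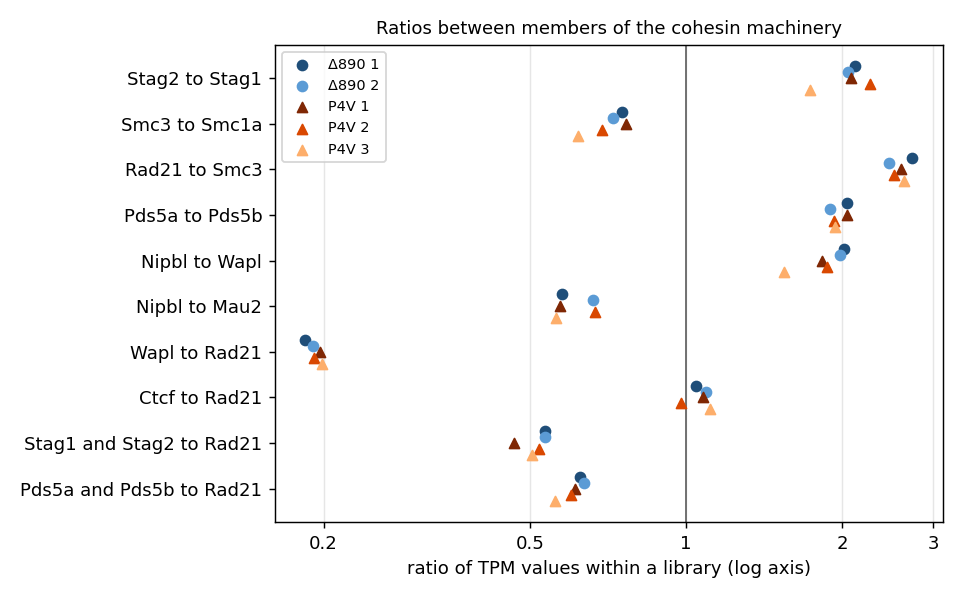
Ratios of TPM values within each library (log axis) for 10 pairs or sums of genes, in Δ890 (circles) and P4V (triangles) cells, with a line at 1. *Nipbl* to *Wapl* runs from 1.54 to 2.02, with the triangles left of the circles, whereas *Rad21* to *Smc3* and *Pds5a* to *Pds5b* overlap.

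Neither group held all the high values. Each of the 10 genes was highest in either Δ890 replicate 2 (5 genes) or P4V replicate 2 (5 genes). The lowest value was in Δ890 replicate 1 for 4 genes, in P4V replicate 1 for 3 and in P4V replicate 3 for 3. The mean deviation of the 10 genes from their 5-library mean was 0.08 and 0.09 on the log2 scale in the high pair and -0.02, -0.09 and -0.06 in Δ890 replicate 1, P4V replicate 1 and P4V replicate 3. *Rad21* stayed closest to this mean profile (root-mean-square difference 0.0263) and *Smc1a* farthest from it (0.119).

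Some genes deviated further from their own means. In P4V replicate 1, the deviation from the gene's own mean was -0.20 for *Stag1*, -0.18 for *Stag2* and -0.18 for *Smc1a*. It was also -0.18 for *Smc1a* in Δ890 replicate 1, and 0.17 for both *Smc1a* and *Stag2* in P4V replicate 2. In P4V replicate 3, the deviation from the gene's own mean was -0.25 for *Nipbl*, -0.17 for *Pds5a*, -0.15 for *Stag2* and -0.14 for *Pds5b* on the log2 scale, while it was 0.12 for *Smc1a* and 0.08 for *Stag1*. P4V replicate 3 is the library with the highest myeloid sum, and the part of myeloid RNA in these values was not tested. Without P4V replicate 3, the log2 change was -0.05 for *Nipbl*, -0.04 for *Pds5a* and -0.05 for *Pds5b*. Without P4V replicate 2, that of *Stag2* was -0.24 with an unadjusted limma p of 0.0170, the lowest p for any of the 10 genes when a library was left out.

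**Figure D4:**
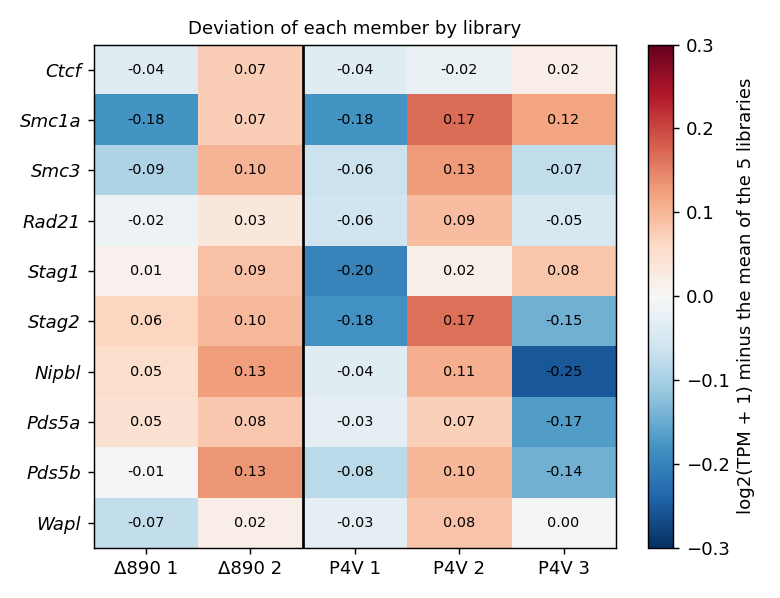
Deviation of log2(TPM + 1) from the 5-library mean for each of the 10 genes (rows) and libraries (columns), with Δ890 left and P4V right of the black line. The columns of Δ890 replicate 2 and P4V replicate 2 are mostly positive, and *Nipbl* in P4V replicate 3 has the lowest value, -0.25.

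The genes whose values ran most nearly parallel to the mean profile of the 10 were found among 7993 genes outside the lists with a mean of at least 10 TPM. They were *Nfatc2ip* (root-mean-square difference 0.0111 on the log2 scale over 5 libraries), *Emc3* (0.0134) and *Atp6v1c1* (0.0135). *Nfatc2ip* was at 35.1 and 37.2 TPM in the Δ890 libraries and at 33.2, 37.2 and 33.6 TPM in the P4V libraries.

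Genes that act on cohesin through the cell cycle were examined next. Of 13 such partners, 10 had a positive and 3 a negative log2 change, with a median of 0.18 compared with -0.06 for the 10 members, and none passed the adjusted threshold. Among the 7 partners with a mean of 10 TPM or more, 4 were positive and 3 negative, with a median of 0.00526. The largest change of the 13, 0.41 for *Cdca5*, was among these 7. The part of the expression level in these changes was not tested. *Espl1*, which encodes separase, the protease that cuts RAD21 in anaphase, was at 8.55 and 8.06 TPM in the Δ890 libraries and at 9.64, 13.2 and 9.93 TPM in the P4V libraries. It was the only partner with an unadjusted limma p below 0.05 (p = 0.0494, adjusted p = 0.893), and its groups did not overlap. Over all genes tested, 4.47% were below this threshold and 23.2% did not overlap. The number of partners below this threshold ran from 0 to 5 over the alternatives. It was 5 without P4V replicate 1, where 837 of all 11672 genes tested were below it. *Cdca5*, which encodes sororin, the protein that keeps WAPL from releasing cohesin after replication, was at 8.65 and 9.54 TPM in the Δ890 libraries and at 9.66, 16.2 and 12.2 TPM in the P4V libraries. *Esco2*, an SMC3 acetyltransferase of S phase, was at 4.38 and 3.68 TPM in the Δ890 libraries and at 4.12, 7.77 and 5.39 TPM in the P4V libraries. *Esco1*, its paralog, was at 13.5 to 16.2 TPM.

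Markers of S and G2/M phase, when these partners act, were listed as well. All 15 had a positive log2 change, with a median of 0.31, 6 of them (*Birc5*, *Plk1*, *Mcm2*, *Mcm5*, *Pcna* and *Rrm2*) had an unadjusted limma p below 0.05, compared with 4.47% of all genes tested, and none passed the adjusted threshold. For 9 of the 15 the groups did not overlap, compared with 23.2% of all genes tested. The 6 at an unadjusted limma p below 0.05 became 2 without P4V replicate 2, 4 without P4V replicate 3, 12 without P4V replicate 1 and 2 in the fit without trend. Over all genes tested, 687 of 11673, 492 of 11687, 837 of 11672 and 564 of 11681 were below 0.05 in these fits. The median log2 change of the 15 was 0.27 without Δ890 replicate 1 and 0.31 without Δ890 replicate 2. The summed level of the 15 was 676 and 705 TPM in the Δ890 libraries and 743, 1009 and 834 TPM in the P4V libraries. It was highest in P4V replicate 2, the library with the most pro-B and pre-B cell RNA (*Igll1*, a surrogate light chain gene, was at 73.8 TPM there and at 17.97 to 19.8 TPM in the other 4). Without this library, 14 of the 15 were positive, with a median of 0.17, and 8 of the 13 partners were positive, with a median of 0.10. P4V replicate 2 also had the highest *Rad21*, *Smc1a*, *Smc3*, *Stag2* and *Wapl* of the 5 libraries. The part of cycling cells or of earlier B cell stages in the values of the 10 genes was not tested.

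Of the 14 genes of condensin and the SMC5/6 complex, which like cohesin are built on SMC proteins, 10 had a positive and 4 a negative log2 change, with none at an unadjusted p below 0.05 by limma. The count of the 14 below 0.05 was 2 without P4V replicate 1 and 1 after median-of-ratios scaling. Over all genes tested, 837 of 11672 and 488 of 11681 were below 0.05 in these 2 fits. Without P4V replicate 2, 6 of the 14 were positive and 8 negative. *Smchd1*, which was listed with them but encodes a subunit of neither complex, had a log2 change of -0.17 (limma adjusted p = 0.893). For 7 of the 15 genes listed, *Smchd1* included, the groups did not overlap, compared with 23.2% of all genes tested. The condensin gene *Ncapd2* was at 66.99 and 67.8 TPM in the Δ890 libraries and at 71.9, 98.6 and 73.1 TPM in the P4V libraries. *Smc4*, an SMC subunit of condensin, was at 34.8 to 46.8 TPM and *Smc2*, its SMC partner, at 11.8 to 16.8 TPM.

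Of 8 other genes of chromosome architecture, 7 had a negative log2 change as deposited and 4 after median-of-ratios scaling, and none had an unadjusted p below 0.05 by limma, although 1 did without P4V replicate 2 and 1 without a filter on low values. Over all genes tested, 687 of 11673 and 839 of 17983 were below 0.05 in these 2 fits. For 3 of the 8 the groups did not overlap, compared with 23.2% of all genes tested. *Yy1*, which encodes a zinc finger protein of enhancer and promoter contacts, was at 156 to 170 TPM, above the 143 to 154 TPM of *Ctcf*. Of the 11 genes of the *Pax5* and PRC2 list, *Phf19*, a PRC2 accessory factor, was alone in having an unadjusted limma p below 0.05 (log2 change 0.43 ± 0.12 (SE), p = 0.0111, adjusted p = 0.893), a share of 1 in 11 beside 4.47% of all genes tested. No gene of this list was below 0.05 without Δ890 replicate 2 or among the 10 left by a filter of 10 TPM. *Phf19* was at 7.70 and 6.31 TPM in the Δ890 libraries and at 9.39, 10.9 and 9.11 TPM in the P4V libraries, without overlap. This held for 4 of the 11 genes of the list and for 23.2% of all genes tested. *Ezh2*, the PRC2 methyltransferase, was at 52.1 TPM in P4V replicate 2 and at 31.9 to 37.3 TPM in the other 4 libraries.

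**Figure D5:**
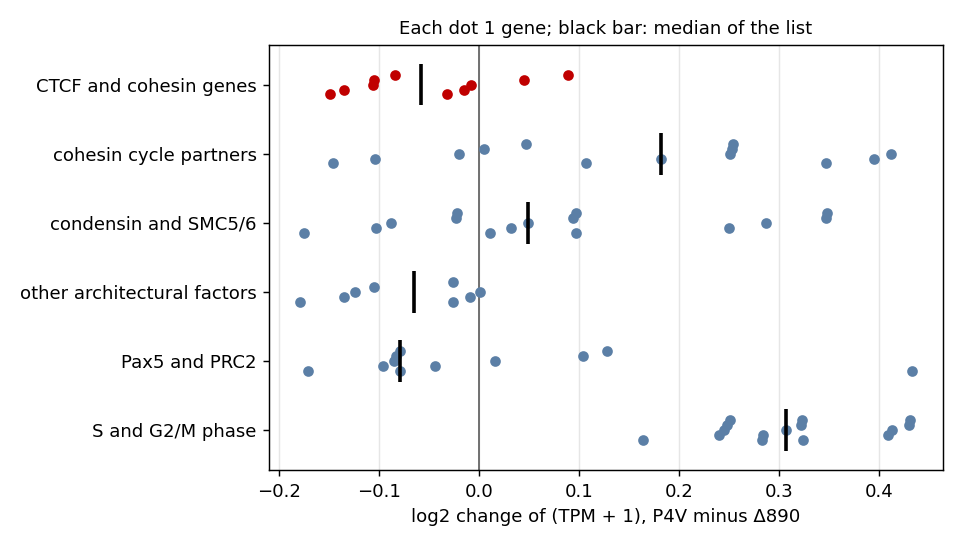
Log2 change of (TPM + 1) between P4V and Δ890 cells for each gene (dot) of 6 lists, with the median as a black bar. The CTCF and cohesin genes (red) lie between -0.15 and 0.09, whereas the 15 S and G2/M phase genes all lie above 0, with a median of 0.31.

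The spread of the 10 genes over the 5 libraries was close to that of all genes tested, with median coefficients of variation of 7.88% and 8.22%. It was above the 6.38% of the 4739 genes of the same range of mean levels. The summed level of the 10 genes was 631 and 679 TPM in the Δ890 libraries and 610, 682 and 625 TPM in the P4V libraries, so that the groups overlapped for the whole set as well.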

How the data were processed

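Poly(A) RNA of 5 libraries of sorted immature B cells was sequenced by the authors in single reads of 50 bases. Per the methods of the study, the authors removed ribosomal reads, aligned with TopHat, marked duplicates, counted uniquely mapping reads over the genes of a transcriptome to which immunoglobulin genes of Ensembl had been added (featureCounts 1.5.0 per the labels) and deposited the values as TPM. TPM keeps no read number, so that depth and counting error are unknown and no interval from counts is given. Uniquely mapping counts understate genes with copies elsewhere. A few entries without a value in 2 libraries were dropped, and the VDJ-seq files, which hold no expression values, were not used. The members and gene lists were chosen with earlier results of these data known.

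Genes that averaged 1 TPM or more over the 5 libraries were fitted with limma 3.58.1 (lmFit, eBayes with trend) in R 4.3.3 on log2(TPM + 1), which understates changes of low genes, with Benjamini-Hochberg adjustment over all 11681 genes and a threshold of 0.05. The limma step was tested on simulated data. Ratios were compared by two-sided exact permutation tests without adjustment. No test was made over the 10 genes as a list. All 10 genes were named. Of the other lists, genes with an unadjusted p below 0.05 were named, and others for their role. Some listed genes are not reported here. Sequence windows were matched exactly, on both strands, to the mm9 genome (Python 3.11.15). Alternatives were other pseudocounts, filters and scalings, a fit without trend, and each library left out in turn.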

Additional observations from a re-analysis of the deposited data

How the results depend on the processing

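No member passed the adjusted threshold under any of the 12 alternatives (lowest limma adjusted p 0.676). Of 120 member values, 107 kept their sign and 13 reversed, all within the intervals. After median-of-ratios scaling, which moved the median of all genes from -0.03 to 0.00307, the log2 change was 0.00257 for *Ctcf*, 0.0197 for *Rad21* and 0.0257 for *Smc3*. With 1 library left out at a time, it ran from -0.0876 to 0.0244 for *Ctcf*, -0.0636 to 0.0130 for *Rad21*, -0.0377 to 0.215 for *Smc1a*, -0.106 to 0.0898 for *Smc3*, -0.142 to 0.000107 for *Stag1* and -0.00289 to 0.0921 for *Wapl*, and, without a change of sign, from -0.244 to -0.0707 for *Stag2*, -0.234 to -0.0523 for *Nipbl*, -0.163 to -0.0431 for *Pds5a* and -0.176 to -0.0363 for *Pds5b*.

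The count of all genes called by limma was 1 in the main analysis, 0 without trend, 0 with a pseudocount of 0.1 or 5, 2 without a filter, and 0 to 4 with 1 library left out. Where 1 Δ890 library remains, it is assumed to vary like the P4V libraries. It was 0 without immunoglobulin segments, which removes *Ighv1-82*, the gene called, by construction. The cause of the other changes was not tested.

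With 1 library left out, the log2 difference of the ratio ran from -0.135 to 0.0576 for *Stag2* to *Stag1*, -0.0811 to 0.0684 for *Rad21* to *Smc3*, -0.0531 to 0.0549 for *Pds5a* to *Pds5b* (-0.000945 with a pseudocount of 1 TPM), -0.145 to 0.0502 for *Nipbl* to *Mau2* and -0.0551 to 0.0363 for *Ctcf* to *Rad21*. The other 5 kept their sign, between -0.251 and -0.110 for *Nipbl* to *Wapl*, -0.176 and -0.0203 for *Smc3* to *Smc1a*, -0.139 and -0.0587 for *Stag1* and *Stag2* to *Rad21*, -0.119 and -0.0551 for *Pds5a* and *Pds5b* to *Rad21*, and 0.0365 and 0.0852 for *Wapl* to *Rad21*. The order of the 10 means was the same by medians and with each library left out. No paired analysis was possible because the labels give these libraries no replicate numbers. The unknown depth, the small groups and the differing content of other cells limit all values.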
